A study of Homo sapiens with 4 samples.

Results

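GDP-fucose is the sugar donor from which cells add fucose to proteins and glycans, and 10 genes of its synthesis, transport and use were examined in HCT116, a human colon carcinoma cell line. The genes were chosen by name: GMDS and GFUS (de novo synthesis), GMPPB (GDP-mannose supply), FCSK and FPGT (salvage), SLC35C1 (Golgi import), and POFUT1, POFUT2, FUT8 and FUT4 (transfer). Of the 35820 rows of the count table, 9 belonged to these 10 genes, and FUT4 was not analysed here. GMDS entered the set because its level was lower in knockout cells, so its difference is given as a description with no test. The other genes were chosen for their place in the pathway, with earlier results of these data known.

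RNA was measured in 2 libraries of clone E2-4 (KO), in which a CRISPR guide was directed at exon 2 of TOP3B, and in 2 libraries of wild-type HCT116 cells (WT). TOP3B is a topoisomerase that works on both nucleic acids, and the comparison addresses its role in transcription and in R-loops. The KO group is 1 clone, so clone and genotype cannot be told apart, and nothing in the labels says whether the 2 libraries of a group were separate cultures, so that p-values measure the spread between these libraries, which may be technical. Total RNA was depleted of ribosomal RNA and sequenced as stranded pairs of 150 bp reads.

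Cells make GDP-fucose by a pair of routes. In the de novo route GDP-mannose 4,6-dehydratase, encoded by GMDS, takes water from GDP-mannose, and GDP-L-fucose synthase, encoded by GFUS, completes the conversion. In the salvage route free fucose is phosphorylated by fucokinase (FCSK) and joined to GDP by FPGT. HCT116 is known for a deletion inside GMDS that removes the enzyme's activity, which leaves these cells dependent on salvage for fucosylation. The deposited counts are per gene and do not show which exons were read.

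The KO libraries held 10450048 and 16143634 estimated counts, and the WT libraries held 15141919 and 11750516. WT replicate 1 stood apart by its TMM scaling factor, 0.858 against 1.04 to 1.06 in the other 3 libraries. CPM below are counts scaled by library size and the TMM factor. A count of 0 allows up to 0.176 to 0.271 CPM, depending on the library, and intervals and limits of this kind cover counting error only. TOP3B itself stood at 43.9 and 54.7 CPM in KO and at 57.1 and 66.5 CPM in WT (log2 fold change -0.32, SE 0.17, edgeR adjusted p = 0.522). What the edit did to the transcript was not tested. Of 9 colon epithelial markers with a row, 2 (KRT20 and CEACAM5) were at 0 in all 4 libraries. The 9 summed to 1452 to 1522 CPM in KO and 2117 to 2584 CPM in WT, most of it KRT19. The part of this difference in the results was not tested. Of 6 tested markers, 5 had an edgeR log2 fold change below 0 and 1, KRT18, was above at 0.41. KRT19 stood at -0.80 and was called by DESeq2 (adjusted p = 0.00298), where 1.38% of all genes were called. CDX2 had estimated counts of 56 and 0 in KO and 46 and 44 in WT. The 12 markers of other cell types with a row summed to 1.53 to 1.90 CPM in KO and 1.54 to 2.13 CPM in WT, with 6 at 0 throughout.

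GMDS lies on the minus strand of chromosome 6, near the end of its short arm, and spans 622 kb with 11 exons in its principal transcript (GENCODE 29, GRCh38). It begins 147 bases from the start of GMDS-DT, a long noncoding RNA read in the opposite direction, by the RefSeq starts of GRCh38.p14. The 250 bases before the GMDS start (GRCh38.p14, chr6:2245606-2245855, minus strand, written 5′ to 3′) are shown because GMDS starts at the end of this stretch and GMDS-DT within it, and the 2 RNAs had different values in KO. Capitals mark the letters GGGCGG, the core of the GC box, on either strand.
GMDS promoter: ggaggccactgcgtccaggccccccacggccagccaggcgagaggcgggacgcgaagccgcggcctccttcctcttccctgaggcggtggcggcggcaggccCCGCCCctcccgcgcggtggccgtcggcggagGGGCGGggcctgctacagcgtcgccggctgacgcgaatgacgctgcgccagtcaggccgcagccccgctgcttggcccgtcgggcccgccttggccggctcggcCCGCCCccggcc
The stretch had a G and C content of 80.0% and 35 CpG dinucleotides, against medians of 58.0% and 11 over 35116 RefSeq promoter windows of the same length. GGGCGG occurred 3 times in it, counting both strands, and was present in 42.6% of all windows. TATAAA and CCAAT, which were found in 10.7% and 32.0% of windows, did not occur on either strand. RefSeq lists 1 further start for GMDS inside the gene, which is not shown.

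GMDS was close to undetected in the KO clone. Its estimated counts were 6 and 1 in the KO libraries, against 122 and 70 in the WT libraries. In CPM this was 0.542 and 0.0587 in KO, against 9.40 and 5.73 in WT, so neither KO library reached the WT range. The group means were 0.300 ± 0.342 CPM in KO and 7.57 ± 2.59 CPM in WT (SD, n = 2 each). On the log2 scale edgeR put GMDS at -4.77 (SE 0.87), KO over WT. From the summed counts, 7 in KO and 192 in WT, the ratio of KO to WT was 0.0327, with an exact 95% interval of 0.0130 to 0.0686 that covers counting error only. GMDS was chosen for its lower level in KO, so this interval is a description and no test. The WT libraries also differed from each other, with counting intervals of 7.81 to 11.2 CPM in WT replicate 1 and 4.47 to 7.24 CPM in WT replicate 2. The size of the fold rested on the KO library used: it was -6.81 without KO replicate 1, which leaves a library with 1 count, and -3.78 without KO replicate 2. Without WT replicate 1 it was -4.35.

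**Figure D1:**
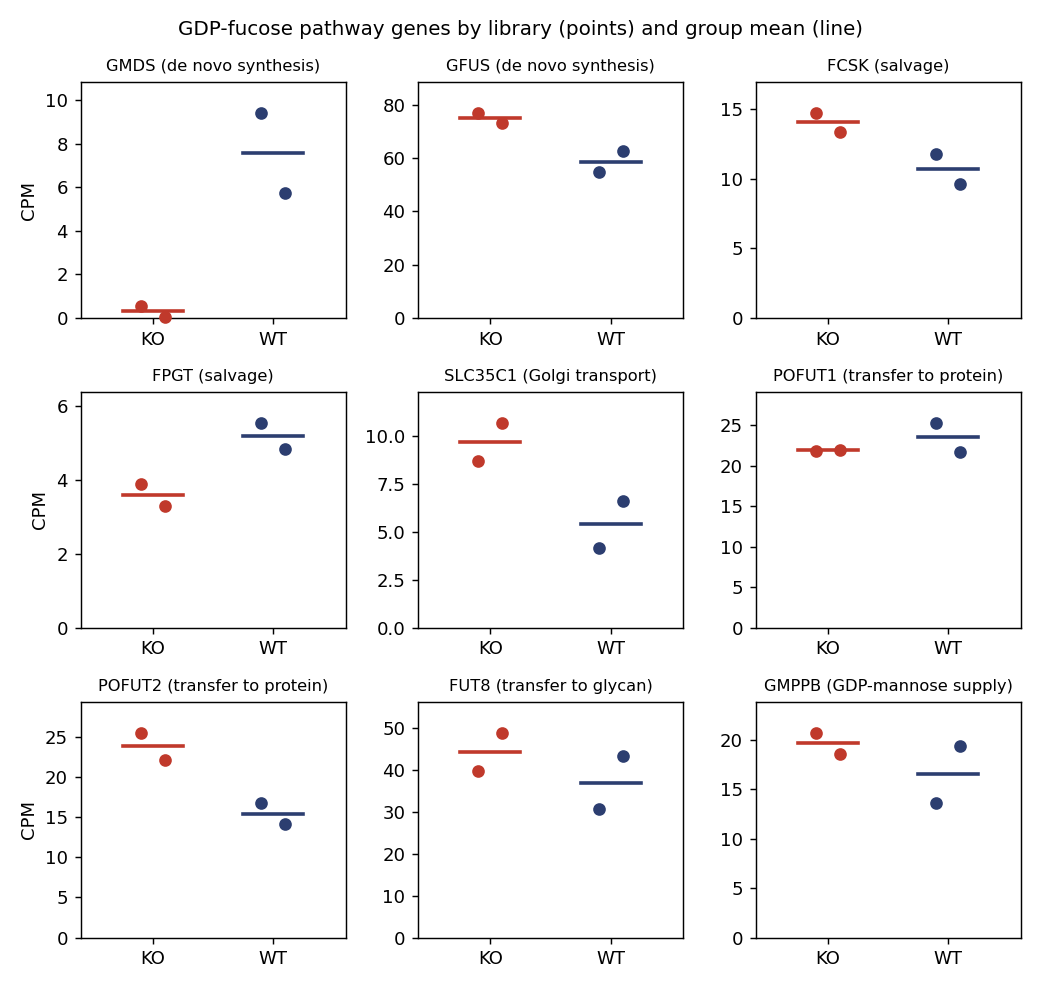
CPM (y axis, linear, from 0) of the 9 GDP-fucose genes in the 2 KO libraries (red points) and the 2 WT libraries (blue points), with a line at each group mean. GMDS is near 0 in both KO libraries, while GFUS, FCSK, SLC35C1 and POFUT2 are higher in both KO libraries than in both WT libraries, and FPGT is lower in both.

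The divergent neighbour GMDS-DT did not show the GMDS pattern. It had 2.08 and 1.41 CPM in KO and 1.16 and 1.72 CPM in WT, and the groups overlapped (log2 fold change 0.27, SE 0.48, edgeR adjusted p = 0.837). The counts behind these values were low, 23 and 24 in KO and 15 and 21 in WT, so a moderate difference would not have been detectable.

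Other genes along the end of the short arm were measured on both sides of GMDS. Of 18 genes listed around it, 10 were tested. None passed edgeR's threshold, an adjusted p under 0.05, where 0.00815% of all genes did. None was called by DESeq2, against 1.38% of all genes, or had an unadjusted edgeR p under 0.05, against 11.2%. 5 had a fold above 0 and 5 below, with a median log2 fold change of -0.049 and a range of -0.82 to 0.72. Both KO libraries were above both WT libraries in 1 of them and below in 1, where 23.5% of all genes were above and 23.5% below. The nearest tested gene on the far side, the exocyst subunit EXOC2, had a log2 fold change of -0.21 (SE 0.39). WRNIP1, which binds stalled replication forks, had 337 and 328 CPM in KO and 387 and 339 CPM in WT (log2 fold change -0.13, SE 0.12, edgeR adjusted p = 0.688), with a fold of 0.038 when libraries were scaled by size alone. SERPINB1, a protease inhibitor, had 5.96 and 8.16 CPM in KO and 17.2 and 7.78 CPM in WT, overlapping (-0.82, SE 0.45, edgeR adjusted p = 0.526). This fold, the lower end of the range above, was -0.13 without WT replicate 1 and -1.26 without WT replicate 2. TUBB2A, a tubulin with a near-identical copy beside it, had 2.71 and 3.99 CPM in KO and 2.16 and 1.97 CPM in WT (0.70, SE 0.40, edgeR adjusted p = 0.535). RIPK1, chosen after its values were seen, had estimated counts of 45 and 32 in KO and 46 and 0 in WT. The cause of the 0 was not tested.

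**Figure D2:**
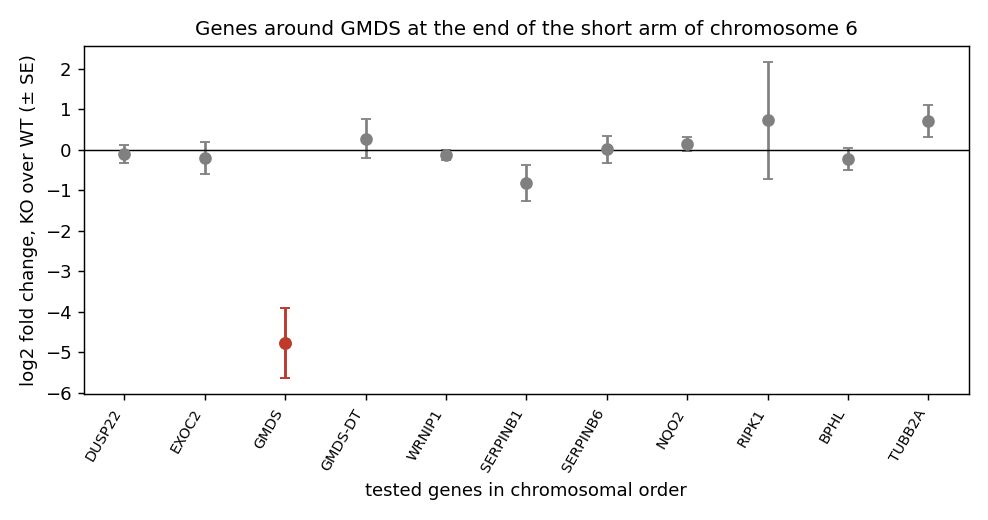
Log2 fold change of KO over WT (y axis, edgeR, bars are ± SE) for GMDS (red) and 10 tested genes around it (grey), in chromosomal order on the x axis with no distance scale. GMDS lies at -4.77 and the others between -0.82 and 0.72.

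GFUS, which follows GMDS in the de novo route, had 76.9 and 73.1 CPM in KO and 54.6 and 62.5 CPM in WT. Both KO libraries lay above both WT libraries, with means of 75.0 ± 2.68 CPM in KO and 58.6 ± 5.55 CPM in WT (SD, n = 2 each). Its log2 fold change of 0.36 (SE 0.13) did not pass edgeR's test over all genes (adjusted p = 0.441, unadjusted p = 0.0436). GMPPB, which makes the GDP-mannose that GMDS uses, had 20.7 and 18.6 CPM in KO and 13.6 and 19.3 CPM in WT. WT replicate 2 lay between the KO libraries (log2 fold change 0.25, SE 0.24, edgeR adjusted p = 0.681), and the fold was 0.021 when WT replicate 1 was left out. GMPPB overlaps AMIGO3 on the same strand and RNF123 on the other, so its estimate is uncertain.

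The salvage genes did not move together. FCSK, the fucokinase, had 14.7 and 13.4 CPM in KO and 11.8 and 9.66 CPM in WT, with both KO libraries above both WT libraries (log2 fold change 0.39, SE 0.22, edgeR adjusted p = 0.538). FPGT, the GDP-fucose pyrophosphorylase, had 3.89 and 3.29 CPM in KO and 5.55 and 4.83 CPM in WT, with both KO libraries below (log2 fold change -0.54, SE 0.32, edgeR adjusted p = 0.552). FPGT shares its sequence with FPGT-TNNI3K, a readthrough gene that starts 23 bases away, so the split of reads between them is uncertain. The readthrough gene had 0.633 and 0.294 CPM in KO and 2.00 and 1.64 CPM in WT (ratio of KO to WT 0.250, edgeR adjusted p = 0.378). LRRIQ3, which starts beside FPGT on the opposite strand, had 2.80 and 3.70 CPM in KO and 4.85 and 4.50 CPM in WT (-0.52, SE 0.34, edgeR adjusted p = 0.573). Each of these values was lower in both KO libraries than in both WT libraries, as in 23.5% of all genes, and none passed.

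SLC35C1 carries GDP-fucose from the cytosol into the Golgi, where most fucosyltransferases work. It had 8.67 and 10.7 CPM in KO and 4.16 and 6.63 CPM in WT, with means of 9.68 ± 1.42 CPM in KO and 5.40 ± 1.75 CPM in WT (SD, n = 2 each). Both KO libraries lay above both WT libraries. Its log2 fold change of 0.85 (SE 0.34) did not pass (edgeR adjusted p = 0.456, unadjusted p = 0.0541). The fold ran from 0.55 without WT replicate 1 to 1.23 without WT replicate 2.

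Of the enzymes that put fucose on proteins in the endoplasmic reticulum, POFUT2 and POFUT1 had different values. POFUT2 modifies thrombospondin repeats and had 25.5 and 22.1 CPM in KO and 16.7 and 14.1 CPM in WT, means of 23.8 ± 2.37 CPM in KO and 15.4 ± 1.86 CPM in WT (SD, n = 2 each). Both KO libraries lay above both WT libraries (log2 fold change 0.63, SE 0.19), and the gene had the smallest p of the genes other than GMDS without passing (edgeR adjusted p = 0.388, unadjusted p = 0.0225). POFUT1 modifies the EGF-like repeats of Notch receptors and had 21.9 and 22.0 CPM in KO and 25.3 and 21.7 CPM in WT. The groups overlapped (log2 fold change -0.10, SE 0.17, edgeR adjusted p = 0.827), and the sign was positive without WT replicate 1 (0.014) and with libraries scaled by size alone (0.067).

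FUT8 adds the core fucose to N-glycans. It had 39.7 and 48.8 CPM in KO and 30.7 and 43.2 CPM in WT, with WT replicate 2 between the KO libraries (log2 fold change 0.26, SE 0.22, edgeR adjusted p = 0.657). The fold shrank to 0.038 when WT replicate 1 was left out. FUT8-AS1, which overlaps FUT8 on the opposite strand, had 2.08 and 1.76 CPM in KO and 1.08 and 1.06 CPM in WT, with the KO libraries above (0.83, SE 0.43, edgeR adjusted p = 0.517). Whether the counting used strand is not given in the sources used here, so reads of the overlap cannot be assigned with certainty.

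Of the 8 tested genes other than GMDS, none passed edgeR's test over all genes, where 0.00815% of 12269 genes did, and none was called by DESeq2, where 1.38% of 13258 genes were (0.49% higher and 0.89% lower). At an unadjusted edgeR p under 0.05 there were 2, GFUS and POFUT2, both higher in KO, where 4.97% of all genes were higher at that level. Both KO libraries lay above both WT libraries in 4 of the 8 (GFUS, FCSK, SLC35C1 and POFUT2), against 23.5% of all genes tested, and below in 1 (FPGT), against 23.5%. The median log2 fold change of the 8 was 0.31, against -0.014 for all genes tested, and 6 of 8 were above 0, against 48.5% of all genes. The 8 were all that had a row, and all passed the filter on low counts.

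**Figure D3:**
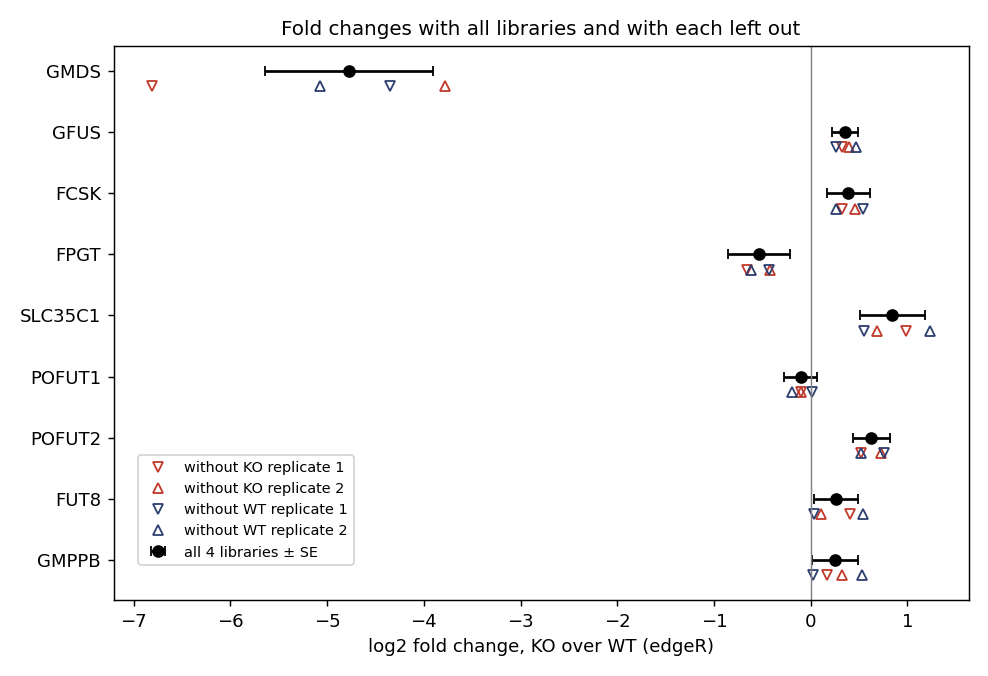
Log2 fold change of KO over WT (x axis, edgeR) for the 9 GDP-fucose genes with all 4 libraries (black, bars are ± SE) and with 1 library left out (open triangles). GMDS lies between -6.81 and -3.78 whichever library is left out, and POFUT1 lies on either side of 0.

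Levels of different genes were compared per kilobase of the principal coding transcript in GENCODE 29. On this scale of CPM per kilobase the order in KO was GFUS (55.1 ± 1.97), FUT8 (8.56 ± 1.25), POFUT2 (8.29 ± 0.824), POFUT1 (4.19 ± 0.0124), FCSK (3.44 ± 0.232), GMPPB (3.21 ± 0.248), SLC35C1 (2.32 ± 0.341), FPGT and GMDS (0.171 ± 0.195; SD, n = 2 each). GMDS thus stood last in KO. In WT GMDS was 5th of the 9 at 4.32 ± 1.48 CPM per kilobase, overlapping POFUT1 (4.49 ± 0.483) above it, and GFUS was again first at 43.0 ± 4.08. In KO the ranges of FUT8 and POFUT2 overlapped, as did those of FCSK and GMPPB. The order depends on the length used. The authors' RPKM implied a length of 190 kb for GMDS and 200.3 kb for FUT8, against principal transcripts of 1.75 kb and 5.17 kb, so RPKM of these long genes was low: GMDS had 0.00280 and 0.000328 RPKM in KO and 0.0426 and 0.0311 RPKM in WT.

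Genes that feed or draw on the pathway were read from 12 lists of 118 genes, of which 99 had a row and 71 were tested. None of the 71 was called by edgeR over all genes. DESeq2 called 1, lower in KO, where 1.38% of all genes were called and 0.89% were lower. At an unadjusted edgeR p under 0.05 there were 6 higher and 2 lower, where 4.97% of all genes were higher and 6.21% lower. The median log2 fold change of the 71 was 0.090, with both KO libraries above both WT libraries in 21 and below in 16, where 23.5% of all genes were above and 23.5% below.

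Of 7 listed genes that supply GDP-mannose, 6 were below 0 and 1 above, with a median of -0.20. GMPPB, which also supplies it and is given above at 0.25, is not in this list. Of all genes tested, 48.5% were above 0. GPI, which interconverts glucose 6-phosphate and fructose 6-phosphate, had 67.6 and 64.6 CPM in KO and 80.5 and 90.2 CPM in WT (log2 fold change -0.37, SE 0.13, edgeR adjusted p = 0.412). GMPPA, the regulatory partner of GMPPB, had 54.6 and 57.1 CPM in KO and 68.6 and 63.3 CPM in WT (-0.24, SE 0.13, edgeR adjusted p = 0.522). PMM1, a phosphomannomutase, was the exception at 0.56 (SE 0.29, edgeR adjusted p = 0.517). Genes that spend GDP-mannose on N-glycans and anchors were above 0 in 6 of 6, with a median of 0.24. Both KO libraries lay above both WT libraries in 2 of them, against 23.5% of all genes. Among them DPM2, a subunit of dolichol-phosphate mannose synthase, had 37.6 and 36.3 CPM in KO and 24.1 and 25.7 CPM in WT (0.57, SE 0.15, edgeR adjusted p = 0.349). ALG1, which adds the first mannose of the N-glycan precursor, had 0.26 (SE 0.14, edgeR adjusted p = 0.530), and DPM3, which anchors that synthase, had 0.56 (SE 0.47, edgeR adjusted p = 0.648).

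Among the other fucosyltransferases only FUT10 and FUT11 passed the filter on low counts. FUT1, FUT2, FUT3, FUT5, FUT6 and FUT9 had counts between 0 and 9 in every library. FUT11 had 42.6 and 39.0 CPM in KO and 51.4 and 50.2 CPM in WT (log2 fold change -0.32, SE 0.14, edgeR adjusted p = 0.473). FUT10 had 21.1 and 16.1 CPM in KO and 24.9 and 23.2 CPM in WT (-0.37, SE 0.20, edgeR adjusted p = 0.525). Both genes were thus lower in both KO libraries than in both WT libraries, as in 23.5% of all genes, and neither passed. Of the genes that release or handle fucose, the fucosidase FUCA2 had -0.81 (SE 0.45), the fucose mutarotase FUOM 0.35 (SE 0.24) and SLC35C2, a relative of SLC35C1, 0.17 (SE 0.13), with edgeR adjusted p between 0.530 and 0.624.

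The 9 other tested transporters of the SLC35 family had a median of 0.056 and a log2 fold change range from -1.95 to 1.38. SLC35B2, which carries the sulfate donor PAPS and not a sugar nucleotide, was the gene that DESeq2 called. It had 1.99 and 5.28 CPM in KO and 14.9 and 13.8 CPM in WT (edgeR log2 fold change -1.95, SE 0.49, adjusted p = 0.336; DESeq2 adjusted p = 0.0402). Its edgeR log2 fold change was -1.44 without KO replicate 1 and -2.85 without KO replicate 2. The DESeq2 adjusted p was 0.756 without KO replicate 1, 0.741 without WT replicate 1, 0.155 without WT replicate 2 and 0.136 with the replicate number as a block, and 0.0292 without KO replicate 2. The sialic acid donor transporter SLC35A1 had 7.77 and 5.64 CPM in KO and 1.62 and 3.52 CPM in WT (1.38, SE 0.48, edgeR adjusted p = 0.420). Its fold was 0.92 without WT replicate 1 and 2.05 without WT replicate 2. SLC35A2, the UDP-galactose transporter, had 107.0 and 102.0 CPM in KO and 74.1 and 81.1 CPM in WT (0.43, SE 0.12, edgeR adjusted p = 0.362).

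**Figure D4:**
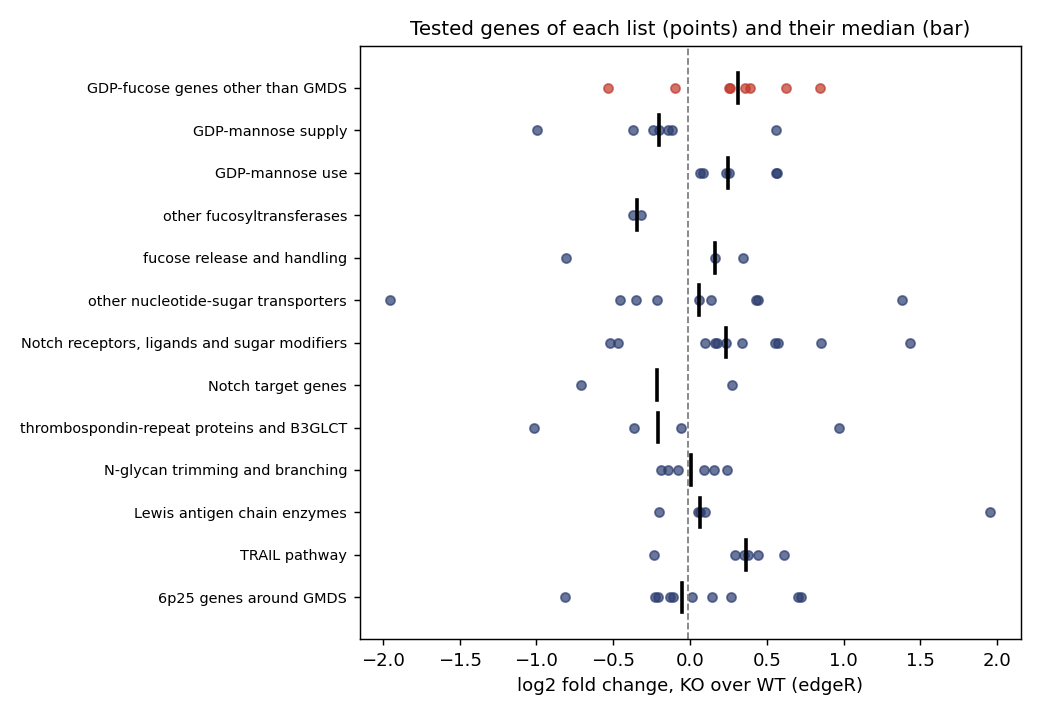
Log2 fold change of KO over WT (x axis, edgeR) of each tested gene (points) in the GDP-fucose set without GMDS (red) and in 12 related lists (blue), with the list median as a black bar and the median of all tested genes, -0.014, as a dashed line. The GDP-fucose set has a median of 0.31, and the medians of the related lists run from -0.35 (other fucosyltransferases) to 0.36 (TRAIL).

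Substrates of the fucosyltransferases gave mixed values. Of 11 tested Notch receptors, ligands and enzymes that decorate them, 9 were above 0 (median 0.24), against 48.5% of all genes. POGLUT3, which glucosylates EGF-like repeats, had 3.80 and 8.57 CPM in KO and 2.23 and 2.37 CPM in WT (1.43, SE 0.49, edgeR adjusted p = 0.415). This fold was 0.72 without KO replicate 2 and 1.89 without KO replicate 1. RFNG, which extends the O-fucose placed by POFUT1, had 0.34 (SE 0.18, edgeR adjusted p = 0.522), and the receptor NOTCH2 had 0.57 (SE 0.31, edgeR adjusted p = 0.525). The Notch targets HES1 and HES4 had -0.71 (SE 0.50) and 0.27 (SE 0.31), with edgeR adjusted p of 0.600 and 0.740, and HES4 turned to -0.049 without WT replicate 1. Of 14 genes listed around the thrombospondin repeats that POFUT2 modifies, 4 were tested. The 3 of smallest p were THBS1 at 0.97 (SE 0.43), ADAMTS17 at -1.01 (SE 0.61) and ADAMTS13 at -0.36 (SE 0.34), with edgeR adjusted p between 0.484 and 0.678. ADAMTS17 stood at -2.004 without KO replicate 1 and at -0.39 without KO replicate 2.

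Enzymes of the N-glycans that carry core fucose lay close to 0, with a median of 0.0058 over 6 genes. MGAT5, which makes the β1,6 branch, had 298.9 and 304.9 CPM in KO and 256.6 and 255.3 CPM in WT (0.24, SE 0.11, edgeR adjusted p = 0.484). MGAT4B had -0.19 (SE 0.17, edgeR adjusted p = 0.663) and MGAT1, which opens the complex branch, 0.090 (SE 0.12, edgeR adjusted p = 0.780). Enzymes of the chains that carry Lewis antigens had a median of 0.062 over 5 tested genes. B3GALT5, which builds type 1 chains, had counts of 8 and 15 in KO and 0 and 5 in WT, too few for a firm fold. B3GNT2 (-0.20, SE 0.31, edgeR adjusted p = 0.808) and GCNT1 (0.097, SE 0.25, edgeR adjusted p = 0.894) turned sign without WT replicate 1 (0.30 and -0.10).

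Loss of GMDS has been linked to resistance of colon cancer cells to TRAIL, a ligand that triggers cell death, so genes of that pathway were listed. Of 6 tested, 5 were above 0 with both KO libraries above both WT libraries, against 23.5% of all genes, and the median was 0.36. The receptor TNFRSF10B had 112.0 and 116.0 CPM in KO and 87.1 and 91.6 CPM in WT (0.35, SE 0.11, edgeR adjusted p = 0.395). CFLAR, an inhibitor of caspase 8, had 76.7 and 68.3 CPM in KO and 54.2 and 57.5 CPM in WT (0.38, SE 0.13, edgeR adjusted p = 0.420). CASP8, the caspase itself, had 63.4 and 60.5 CPM in KO and 53.5 and 47.6 CPM in WT (0.29, SE 0.13, edgeR adjusted p = 0.491). No gene of the list passed over all genes. By the deletion described above, WT cells also lack the enzyme's activity. KO against WT is therefore not a comparison of cells without and with that activity.

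The genes closest to GMDS in their pattern over the 4 libraries included ZNF510, SKIDA1, GALNT3 and PTGFRN. Likeness was the Euclidean distance between profiles of log2 CPM, each minus its own mean. Their distances ran from 1.09 to 1.22, and the median over 12268 other genes was 4.51. The genes were picked for the smallest distances, so they lie below that median by choice. GALNT3, an enzyme that starts O-glycans on mucins, had 4.61 and 1.06 CPM in KO and 22.1 and 21.2 CPM in WT. ZNF510, a zinc finger protein, had 0.813 and 0.0587 CPM in KO and 4.93 and 7.37 CPM in WT. PTGFRN had 0 counts in both KO libraries, against 46 and 25 in WT. SKIDA1 had 2 and 0 counts in KO and 29 and 19 in WT. A gene like GMDS is by this choice low in KO, so these profiles are a description.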

How the data were processed

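The authors deposited a count table with 1 column for each of the 4 libraries, per the file headers. The authors' whole numbers were read as rounded estimated counts, since Salmon gives estimates; the rounding is inferred from the values. The authors also deposited RPKM, values per kilobase of gene length and library size, for the same libraries. The submitters' processing notes list Salmon 1.10.1 and the build hg19. How genes were annotated and whether strand was used is not given in the sources used here. GENCODE 29 and RefSeq tables (GRCh38) gave identifiers, order, transcript lengths and the promoter sequence.

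Counts were tested with edgeR 4.0.16 in R 4.3.3 (TMM, filterByExpr, glmQLFit, glmQLFTest; genotype alone), with Benjamini-Hochberg adjustment over 12269 genes and a threshold of 0.05. DESeq2 1.42.0 was an alternative. An SE is the log2 fold change divided by the square root of F. Log2 CPM used a prior count of 2. The scripts were tested on simulated data.

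Members and lists were chosen with earlier results of these data known. Named genes were the members, the 3 of smallest edgeR p in each list, any list gene called by edgeR or DESeq2, the 5 most like GMDS (1 of them is not reported here), and TOP3B. Groups came from the sample titles. Alternatives were other scalings, no filter, a replicate block and each library left out.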

Additional observations from a re-analysis of the deposited data

How the results depend on the processing

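The members other than GMDS gave 0 calls under all 9 alternatives to the edgeR fit. GMDS ran from -6.81 to -3.78 on the log2 scale. It was chosen for its lower level in KO, so its kept direction is a description and no test. POFUT1 turned to 0.067 with library size alone, which moved the median of all genes from -0.014 to 0.14, and ran from -0.19 to 0.014 with a library left out. Of 305 values of the 34 genes named from the lists, 299 kept their direction and stayed uncalled. TOP3B and the genes most like GMDS were not among them. SLC35B2 passed in DESeq2 (-1.96), and WRNIP1 turned to 0.038 with library size alone. With a library left out HES4 ran from -0.049 to 0.69, B3GNT2 from -0.56 to 0.30 and GCNT1 from -0.18 to 0.34, each turning without WT replicate 1 and GCNT1 (-0.10 there) also without KO replicate 2. The cause was not tested for any of these. The list genes gave 1 call in DESeq2, against 0 in edgeR.

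Over all genes edgeR called 1 (0 higher, 1 lower; 1372 at an unadjusted p under 0.05), 42 with library size alone (15 higher, 27 lower), 34 with no filter (7 higher, 27 lower), and 0 to 575 with a library left out: 0 without either KO replicate (914 and 959 at an unadjusted p under 0.05), 3 without WT replicate 1 and 575 without WT replicate 2. DESeq2 called 183 (65 higher, 118 lower), 75 and 72 without KO replicates 1 and 2, 86 without WT replicate 1, 721 without WT replicate 2, and 99 with the replicate block. These DESeq2 repeats were chosen after seeing the data. A lone library in a group is assumed to vary like the other group.

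Same-numbered KO and WT libraries were not treated as pairs in the main fit. Their deviations from the group means correlated at r = 0.058 across 12269 genes. With 2 libraries per group, this value cannot show whether they shared a batch. With the replicate block edgeR called 1 gene and 0 members. Counts of 1 to 24, as for GMDS in KO and GMDS-DT, limit precision.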
